A study of Mus musculus with 6 samples.

Results

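The insulin-like growth factor (IGF) system was followed in the frontal cortex of GFAP-IL6 mice through 10 genes: the ligands Igf1 and Igf2, the receptors Igf1r and Igf2r, and the binding proteins Igfbp2, Igfbp3, Igfbp4, Igfbp5, Igfbp6 and Igfbp7. Members were taken by symbol from a gene count table of 33000 genes. Each symbol matched a single gene, and 10 of 10 members were among the 15341 genes with enough reads to be tested. Igfbp5 and Igfbp7 rose in GFAP-IL6 cortex, 1.53-fold and 1.88-fold, and the other 8 members did not pass the test. Igfbp7 passed whichever library was left out, while Igfbp5 did not pass without GFAP-IL6 replicate 3 or without wild-type replicate 3.

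IGF1 and IGF2 are small secreted growth factors that signal through the receptor tyrosine kinase IGF1R, while IGF2R, which is also the cation-independent mannose 6-phosphate receptor, takes up IGF2 for degradation and carries lysosomal enzymes. The IGF binding proteins are secreted proteins that hold the ligands outside the cell and set how much of them reaches a receptor. In the adult brain Igf2 is made mainly by the leptomeninges and choroid plexus, which also make Igfbp2, and Igfbp7 is a known product of blood vessels.

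The libraries were poly(A)-selected TruSeq mRNA libraries from the frontal cortex of mice at 3 months of age. Of these, 3 were from homozygous GFAP-IL6 mice and 3 from wild-type (WT) mice without the transgene. The study's text names the strain C57BL/6 with the WT mice and names no strain for the GFAP-IL6 mice. GFAP-IL6 mice carry the cytokine interleukin 6 under the Gfap promoter, which is active in astrocytes, so that astrocytes make the transgenic IL6. No animal was given a drug. Whether the WT mice were littermates is not given in the sources used here. In such bulk tissue, more or fewer cells of a type and more or less RNA per cell cannot be told apart.

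Between 7559524 and 16877001 reads were assigned to genes per library, and each GFAP-IL6 library was shallower than each WT library. A gene with 0 reads could still have been present at up to 0.178 to 0.397 CPM (counts scaled to a common library size), the level of 3 reads, a limit that covers counting error only. Il6 followed the labels, with 0, 2 and 0 reads in the WT libraries and 12, 10 and 24 in the GFAP-IL6 libraries. Gfap, the astrocyte intermediate filament gene, rose from 94.5 ± 24.8 to 678 ± 179 CPM (SD, n = 3). The libraries differed in marker content as well. Of 10 choroid plexus markers, summed TPM, in which counts are divided by gene length, reached 1320 in WT replicate 3 against 5.34 and 31.0 in the other WT libraries and 7.96 to 123 in the GFAP-IL6 libraries, and 8 striatal markers summed to 474 TPM in WT replicate 2 against 224 to 280 TPM elsewhere.

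The starting regions of the binding protein genes that rose are shown first, since both genes moved the same way. Each line gives the 250 bases before the start in the RefSeq promoter table on GRCm38, read on the gene's own strand, with CG dinucleotides in capitals. The Igfbp5 window is chr1:72874866-72875115 and the Igfbp7 window is chr5:77408046-77408295, both on the minus strand. The starts in this table differ for some members from the GENCODE M21 gene positions given below. The Igfbp5 window, for example, reaches into the M21 span of the gene, chr1:72857932-72874884.
Igfbp5: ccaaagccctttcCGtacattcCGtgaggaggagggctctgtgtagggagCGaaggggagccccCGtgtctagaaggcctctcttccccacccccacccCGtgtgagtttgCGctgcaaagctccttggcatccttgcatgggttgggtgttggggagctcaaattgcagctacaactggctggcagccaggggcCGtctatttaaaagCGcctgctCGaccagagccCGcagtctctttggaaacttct
Igfbp7: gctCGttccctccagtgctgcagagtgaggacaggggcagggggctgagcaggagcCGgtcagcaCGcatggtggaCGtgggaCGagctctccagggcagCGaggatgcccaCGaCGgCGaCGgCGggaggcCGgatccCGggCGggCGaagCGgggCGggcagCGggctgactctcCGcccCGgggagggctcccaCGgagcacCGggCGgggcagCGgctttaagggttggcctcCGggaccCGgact
The Igfbp7 window held 26 CG dinucleotides at 74.0% G + C, and the Igfbp5 window held 10 at 58.8%. Over the 14 windows that the table gives for the 10 members, the medians were 12.5 CG dinucleotides and 66.6% G + C, against 6 and 52.4% over all 32851 windows. The STAT site TTCNNNGAA, searched on both strands because IL6 signals through STAT3, was in 0 of the 14 windows and in 7.02% of all windows. The C/EBP site TTGCGCAA was likewise in 0 of 14 and in 0.16% of all windows. TATAAA was in the Igfbp4 window, 28 bases before the start, and on the opposite strand of the Igfbp6 window, 148 bases before the start, and in 12.4% of all windows. A match or its absence describes these letters in these windows and says nothing of binding.

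Within each group the members were ordered by TPM, the scale corrected for gene length. In WT cortex Igfbp6 stood highest at 104 ± 11.5 TPM (SD, n = 3), above Igfbp5 at 72.5 ± 9.23, Igfbp4 at 67.8 ± 1.57, Igfbp2 at 50.4 ± 5.87 and Igfbp7 at 39.1 ± 2.35. The ligand Igf2 followed at 23.7 ± 1.73 TPM, then the receptors Igf2r at 13.2 ± 2.51 and Igf1r at 11.5 ± 3.84. Igfbp3 at 7.44 ± 1.39 TPM and Igf1 at 3.41 ± 0.114 TPM stood lowest. Neighbours in this order overlapped between libraries for Igfbp5 and Igfbp4, for Igf2r and Igf1r, and for Igf1r and Igfbp3. Binding protein transcripts thus outnumbered ligand transcripts in every library.

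In GFAP-IL6 cortex the order of levels began with Igfbp5 at 117 ± 18.2 TPM, followed by Igfbp6 at 108 ± 9.79 and Igfbp7 at 77.2 ± 9.30. The libraries of Igfbp5 and Igfbp6 overlapped, as did those of Igfbp7 and Igfbp4, which had 72.4 ± 3.34 TPM. Igfbp2 at 39.6 ± 6.36 TPM and Igf2 at 25.4 ± 6.65 TPM came next. The receptors Igf1r at 17.7 ± 1.89 TPM and Igf2r at 15.1 ± 1.18 TPM overlapped, and Igfbp3 at 7.21 ± 0.960 and Igf1 at 3.17 ± 0.441 TPM again stood lowest.

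**Figure D1:**
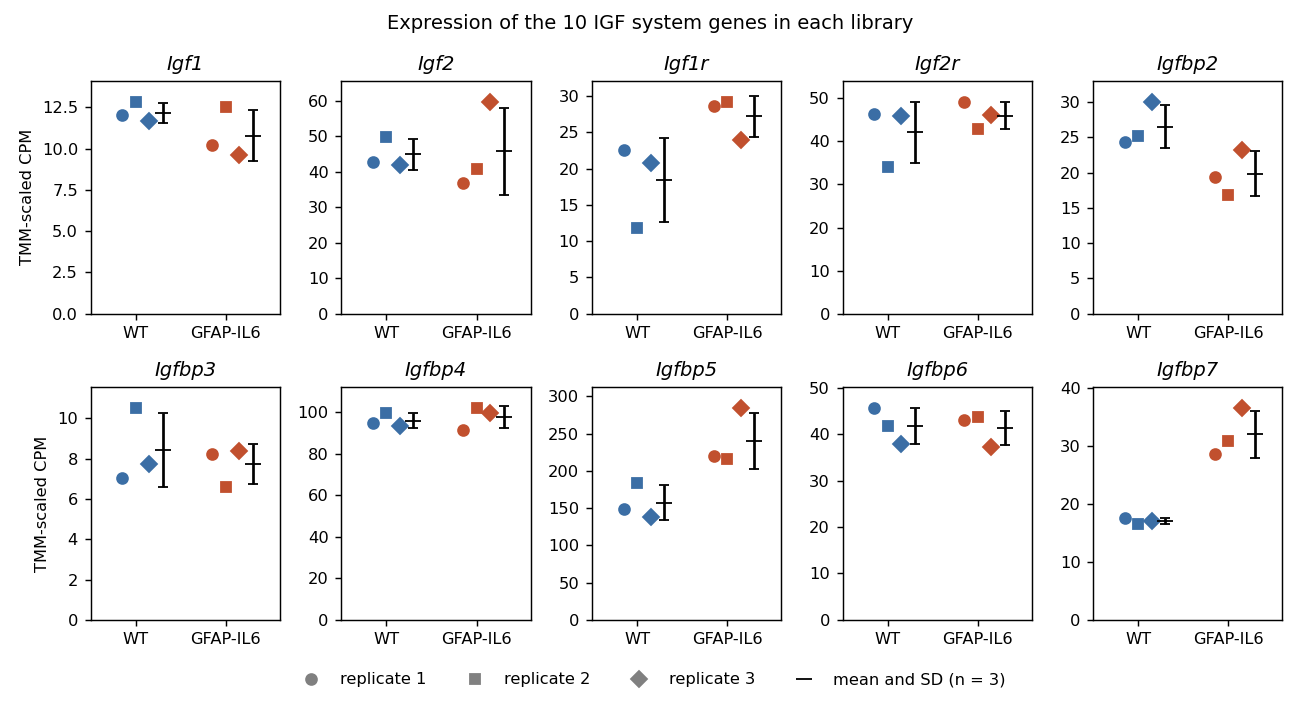
Level of each of the 10 IGF members in every library, in TMM-scaled CPM with an own axis from 0 for each gene, marker shapes for the replicates, and black marks for the mean and SD of the 3 libraries of a group. The Igfbp7 points of the groups are apart (16.5 to 17.5 against 28.7 to 36.5 CPM), while those of Igf1, Igf2, Igf2r, Igfbp3, Igfbp4 and Igfbp6 overlap.

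Of the 15341 genes tested, 439 (2.86%) passed an adjusted p under 0.05 between GFAP-IL6 and WT (edgeR quasi-likelihood test, Benjamini-Hochberg adjustment over all genes tested), and 407 of them were higher, 2.65% of those tested. Among the 10 members, 2 passed, Igfbp5 and Igfbp7, both higher. Genes that in addition had an absolute log2 fold change over 1 made up 1.38% of those tested and included 0 members. At an unadjusted p under 0.05, which 20.5% of all genes reached, 4 members were counted: Igf1r, Igfbp5 and Igfbp7 higher and Igfbp2 lower. The same 4 were the members whose WT and GFAP-IL6 libraries did not overlap, as was found for 26.5% of all genes tested. The median log2 fold change of the members was 0.02, with 6 higher and 4 lower, beside -0.004 over all genes tested.

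**Figure D2:**
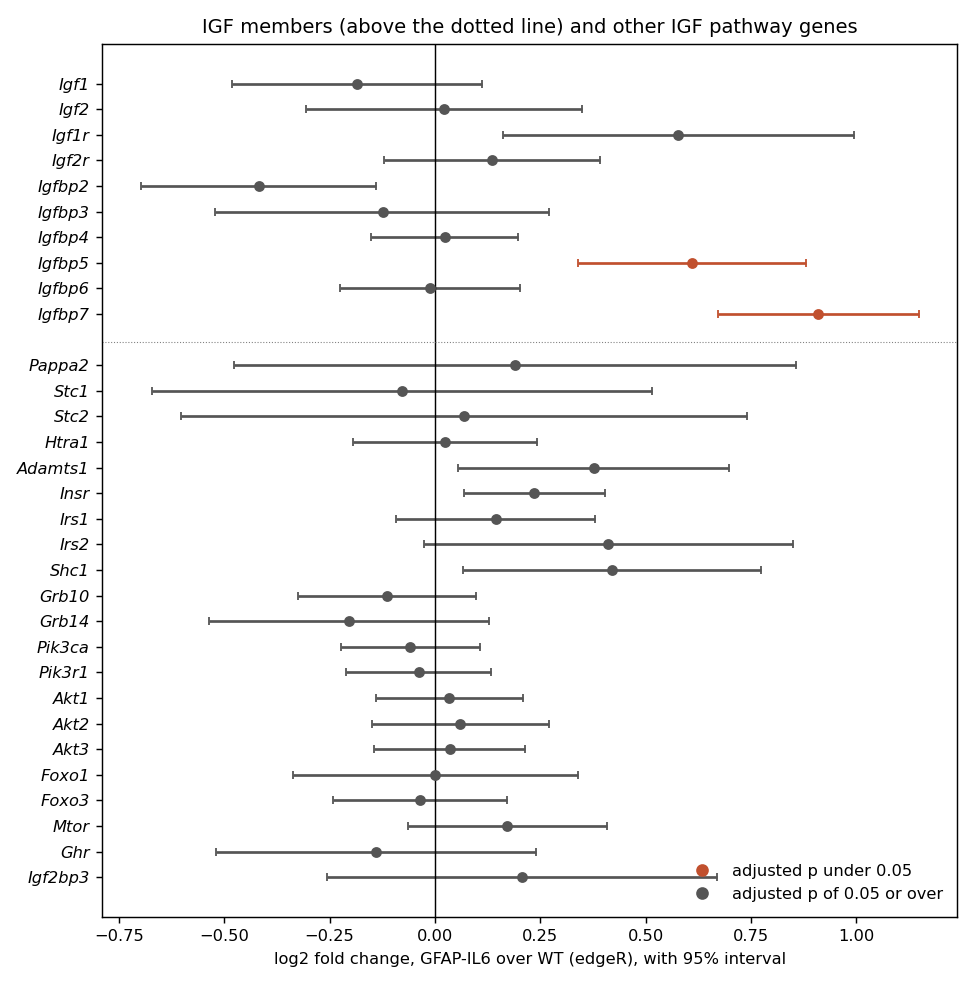
Log2 fold change (GFAP-IL6 over WT) with its 95% interval for the 10 IGF members, above the dotted line, and for the 21 other pathway genes tested, below it, with genes past an adjusted p under 0.05 in red. Igfbp5 (0.61) and Igfbp7 (0.91) are the red points, and the intervals of Igf1r (0.58) and Igfbp2 (-0.42) do not reach 0.

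Igf1 (chr10:87858265-87937042, GRCm38, plus strand) encodes the ligand made in the postnatal brain by neurons and by activated microglia. It was read at 12.02, 12.8 and 11.7 CPM in the WT libraries and at 10.2, 12.6 and 9.60 CPM in the GFAP-IL6 libraries. GFAP-IL6 replicate 2 lay within the WT values and the other GFAP-IL6 libraries lay below them. The log2 fold change was -0.18 (SE 0.14, edgeR adjusted p = 0.464) with a 95% interval from -0.48 to 0.11. These values rest on 86 to 215 reads per library.

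Igf2 (chr7:142650766-142666816, minus strand), the imprinted ligand, was read at 42.9, 49.9 and 41.9 CPM in the WT libraries and at 36.8, 40.8 and 59.6 CPM in the GFAP-IL6 libraries. The lowest and the highest of the 6 values were both in GFAP-IL6 mice. The log2 fold change was 0.02 (SE 0.15, edgeR adjusted p = 0.95), and the fold change had a 95% interval of 0.81 to 1.27. Without GFAP-IL6 replicate 3, the library of highest Igf2, the log2 fold change was -0.21, with an adjusted p of 0.453. In GENCODE M21 the protein-coding gene Gm49394, on the same strand, shares 3596 exon bases with Igf2, 62.8% of its exon bases. Gm49394 has no entry of its own in the count table used here, so the reads of this shared sequence cannot be told apart. Igf2os, an RNA transcribed from the opposite strand, shares 98 exon bases with Igf2 and had 1 to 7 reads per library.

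Because choroid plexus and leptomeninges make Igf2 and Igfbp2, their markers were read in the same libraries. WT replicate 3, with by far the most choroid plexus transcripts (Ttr, the transthyretin gene, at 550 CPM against 1.31 to 47.3 CPM elsewhere), had the lowest Igf2 of the WT libraries and the highest Igfbp2, 30.0 CPM. Without this library the log2 fold change of Igf2 was -0.03, with an adjusted p of 0.947. Of the 10 choroid plexus markers, 4 had enough reads to be tested, and all 4 were lower in GFAP-IL6 with a median log2 fold change of -1.89. Of these, 0 passed the adjusted threshold, with 2 at an unadjusted p under 0.05. WT replicate 3 was the highest library for all 4. In the other WT libraries Ttr was at 1.31 and 11.2 CPM, overlapping the 1.68 to 47.3 CPM of the GFAP-IL6 libraries. Otx2 had 0 reads in WT replicate 1, Slc4a5 had 0 in GFAP-IL6 replicate 1, and Otx2 and Folr1 had 0 in GFAP-IL6 replicate 3. The 10 markers of leptomeninges and fibroblasts summed to 73.7, 89.1 and 46.9 TPM in the WT libraries and to 63.8, 49.8 and 96.7 TPM in the GFAP-IL6 libraries, with 0 of 10 past the adjusted threshold, 1 lower at an unadjusted p under 0.05, and a median log2 fold change of -0.15. GFAP-IL6 replicate 3 was highest both in this sum and in Igf2. As a share of the leptomeningeal sum, Igf2 was 28.7 to 47.3% in WT and 32.3 to 45.2% in GFAP-IL6 libraries, ranges that overlap.

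**Figure D3:**
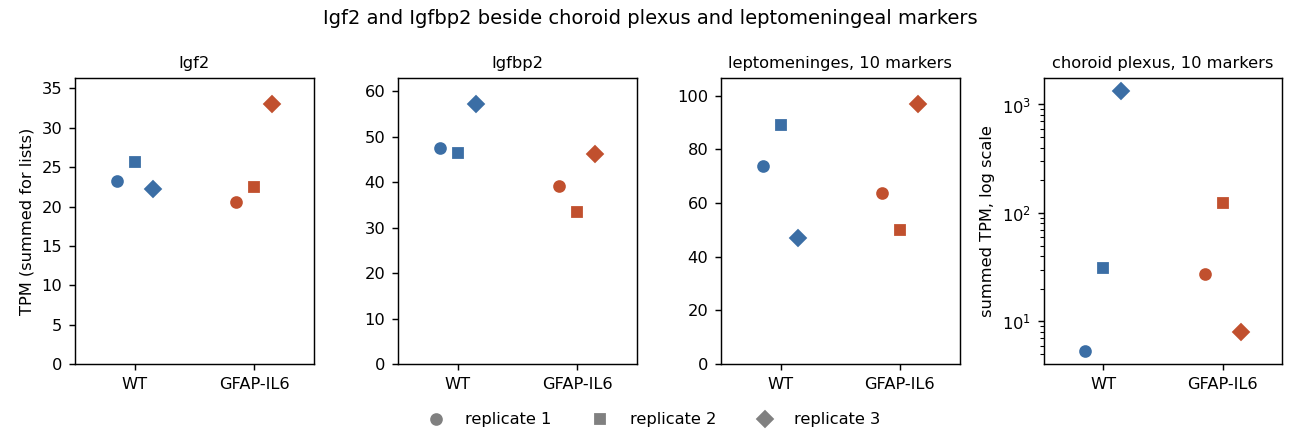
Igf2 and Igfbp2 in TPM beside the summed TPM of 10 leptomeningeal markers and, on a log axis, of 10 choroid plexus markers, in each WT and GFAP-IL6 library. WT replicate 3 stands apart in choroid plexus markers (1320 TPM) but not in Igf2 (22.2 TPM), and GFAP-IL6 replicate 3 is highest in Igf2 (33.0 TPM) and in leptomeningeal markers (96.7 TPM).

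Igf1r (chr7:67952827-68233668, plus strand), the receptor that carries the signal of both ligands, was read at 22.7, 11.9 and 20.8 CPM in the WT libraries and at 28.6, 29.2 and 24.0 CPM in the GFAP-IL6 libraries. Every GFAP-IL6 library lay above every WT library, and WT replicate 2 stood well below the other WT libraries. The log2 fold change was 0.58 (SE 0.19, edgeR adjusted p = 0.13) and the fold change had a 95% interval of 1.12 to 1.99, but the gene did not pass the threshold. Without WT replicate 2 the log2 fold change was 0.33, with an adjusted p of 0.141. Without WT replicate 1 it was 0.74 and passed, with an adjusted p of 0.0399. WT replicate 2 was also the library of highest striatal markers, and their part in the result was not tested. The count table gave Igf1r a length of 4489 bases, against 16791 exon bases in GENCODE M21, so the counts cover a part of the exon sequence of that annotation.

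Igf2r (chr17:12682406-12769664, minus strand), the clearance receptor for IGF2, was read at 46.3, 34.0 and 45.9 CPM in the WT libraries and at 49.1, 42.8 and 46.1 CPM in the GFAP-IL6 libraries. The groups overlapped, and WT replicate 2 was again the lowest library. The log2 fold change was 0.14 (SE 0.12, edgeR adjusted p = 0.536) with a 95% interval from -0.12 to 0.39. Airn, the noncoding RNA transcribed across this locus, shares 0 exon bases with Igf2r and had 2 to 12 reads per library.

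Igfbp7 (chr5:77349240-77408041, minus strand), which binds IGFs weakly and is deposited in the vascular basement membrane, rose in GFAP-IL6 cortex. It was read at 17.5, 16.5 and 17.1 CPM in the WT libraries and at 28.7, 30.9 and 36.5 CPM in the GFAP-IL6 libraries, from 201 to 327 reads each. The WT libraries lay close together, and the lowest GFAP-IL6 library was well above the highest of them. The mean went from 17.0 ± 0.530 to 32.0 ± 4.03 CPM (SD, n = 3), a log2 fold change of 0.91 (SE 0.11, edgeR adjusted p = 0.000422) and a fold change of 1.88 with a 95% interval of 1.59 to 2.22. Igfbp7 ranked 75 of 15341 by p. It passed in 14 of 14 alternative fits, including each that left out a library, so no single library decided its call. The gene shares 85 exon bases, 7% of its exon length, with Polr2b on the opposite strand. Polr2b had 802 to 1182 raw reads in WT and 501 to 749 in GFAP-IL6 libraries. These reads are not scaled for depth, and each GFAP-IL6 library was shallower than each WT library, so they do not tell whether Polr2b changed.

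Igfbp5 (chr1:72857932-72874884, minus strand), a binding protein that attaches to extracellular matrix, also rose. It was read at 149, 184 and 139 CPM in the WT libraries and at 221, 216 and 284 CPM in the GFAP-IL6 libraries. All GFAP-IL6 libraries lay above all WT libraries, and GFAP-IL6 replicate 3 was the highest. The mean went from 157 ± 23.7 to 240.2 ± 38.1 CPM (SD, n = 3), a log2 fold change of 0.61 (SE 0.13, edgeR adjusted p = 0.0179) and a fold change of 1.53 with a 95% interval of 1.27 to 1.84. The call depended on single libraries. Without GFAP-IL6 replicate 3 the log2 fold change was 0.48 with an adjusted p of 0.122, and without WT replicate 3 it was 0.53 with an adjusted p of 0.0695.

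Igfbp2 (chr1:72824503-72852474, plus strand), a main binding protein of the developing and adult brain, was read at 24.3, 25.2 and 30.0 CPM in the WT libraries and at 19.4, 16.9 and 23.2 CPM in the GFAP-IL6 libraries. Every GFAP-IL6 value was below every WT value, the closest being 23.2 and 24.3 CPM. The log2 fold change was -0.42 (SE 0.13, edgeR adjusted p = 0.108), with an interval of the fold change from 0.617 to 0.908, and the gene did not pass the threshold. WT replicate 3, the library rich in choroid plexus transcripts, had the highest Igfbp2, and without it the log2 fold change was -0.32 with an adjusted p of 0.247. As a share of the leptomeningeal sum Igfbp2 was 52.2 to 122% in WT and 47.8 to 67.3% in GFAP-IL6 libraries, which overlap. Igfbp2 and Igfbp5 are neighbours on chromosome 1, their 3′ ends facing each other 5457 bases apart, and their log2 fold changes had opposite signs.

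**Figure D4:**
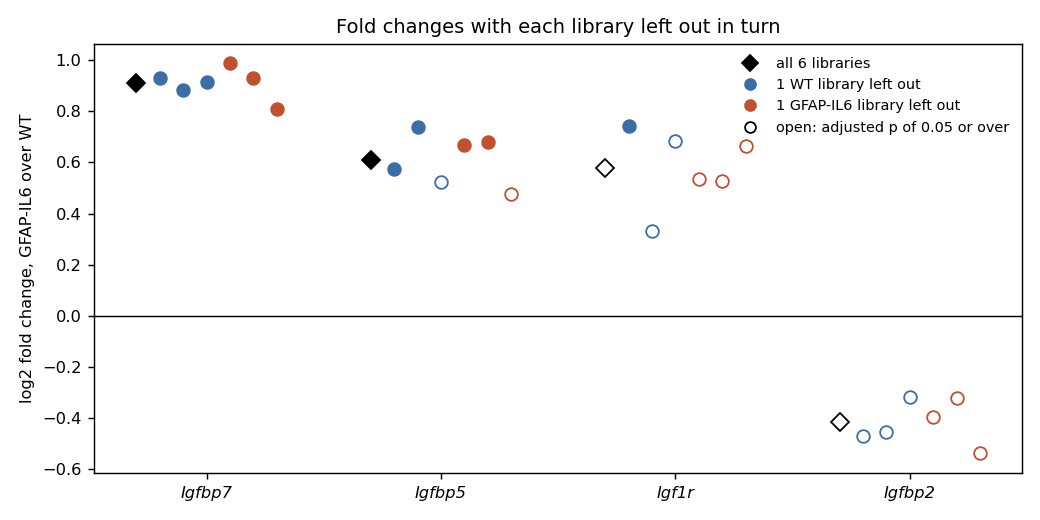
Log2 fold change (GFAP-IL6 over WT) of Igfbp7, Igfbp5, Igf1r and Igfbp2 with all 6 libraries (black diamonds) and after leaving out each library in turn (circles), open where the adjusted p was 0.05 or over. Igfbp7 stays between 0.81 and 0.99 with every symbol filled, and Igfbp5 ranges from 0.48 to 0.74 with 2 open circles.

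The other binding proteins overlapped between groups. Igfbp4 (chr11:99041244-99054392, plus strand), an inhibitory binding protein, ranged from 93.2 to 99.7 CPM in WT and from 91.4 to 102 CPM in GFAP-IL6 libraries, a log2 fold change of 0.02 (SE 0.08, edgeR adjusted p = 0.899). Its fold change had a 95% interval of 0.9 to 1.15, the narrowest of the members. Igfbp6 (chr15:102144362-102149511, plus strand), which prefers IGF2, ranged from 37.9 to 45.6 CPM in WT and from 37.2 to 43.7 CPM in GFAP-IL6 libraries, a log2 fold change of -0.01 (SE 0.10, adjusted p = 0.96). Igfbp3 (chr11:7206086-7213923, minus strand), the main IGF carrier in serum, ranged from 7.06 to 10.5 CPM in WT and from 6.60 to 8.37 CPM in GFAP-IL6 libraries, a log2 fold change of -0.12 (SE 0.18, adjusted p = 0.731). Igfbp4 and Igfbp6 were thus bounded more tightly than Igfbp3, the least abundant binding protein on the TPM scale.

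The make-up of the binding protein transcripts moved toward Igfbp5 and Igfbp7. The 6 binding proteins summed to 352, 344 and 328 TPM in the WT libraries and to 408, 406 and 450 TPM in the GFAP-IL6 libraries. Igfbp5 made up 20.2, 23.9 and 19.6% of that sum in WT and 26.5, 25.6 and 30.6% in GFAP-IL6 libraries. Igfbp7 made up 11.7, 10.6 and 12% in WT and 17.1, 18.2 and 19.5% in GFAP-IL6 libraries. These sums and shares use the same values as the tests above and are given as a description.

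Vascular and glial markers were read beside these genes. Of 8 endothelial markers, 8 were higher and 5 passed the adjusted threshold (Cldn5, Pecam1, Flt1, Ly6c1 and Slco1a4). Of all genes tested, 2.65% passed it and were higher. The median log2 fold change of the endothelial markers was 0.57, and their summed level was 157 to 167 TPM in WT and 248 to 306 TPM in GFAP-IL6 libraries. Cldn5, a tight junction gene of brain endothelium, went from 21.2 ± 3.11 to 40.7 ± 6.81 CPM (edgeR adjusted p = 0.00177). Of 8 markers of pericytes and smooth muscle, only the pericyte gene Rgs5 passed, with a median of 0.28 and sums of 167 to 212 TPM in WT and 236 to 267 TPM in GFAP-IL6 libraries. Of 8 microglial markers, 7 were higher, 6 of them past the threshold, and 1 was lower without passing, with a median of 0.77. Their sums were 444 to 539 TPM in WT and 922 to 1050 TPM in GFAP-IL6 libraries. Of 8 astrocyte markers, Gfap alone passed, with a median of 0.03 and sums of 1750 to 2170 TPM in WT and 2300 to 2850 TPM in GFAP-IL6 libraries. Markers of cortical excitatory neurons and of striatum had 0 of 8 past the threshold each, with medians of 0.01 and -0.46, and the neuronal sums were 1330 to 1670 TPM in WT and 1480 to 1640 TPM in GFAP-IL6 libraries.

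Set against these markers, Igfbp7 was 26.2, 23.3 and 23.5% of the endothelial sum in the WT libraries and 28.2, 25.7 and 28.7% in the GFAP-IL6 libraries, ranges that overlap. Against the pericyte and smooth muscle sum it was 20.5, 17.3 and 23.6% in WT and 29.2, 31.4 and 32.8% in GFAP-IL6 libraries, which do not overlap. Igfbp5 was 38.3 to 52.4% of the endothelial sum in WT and 36.2 to 44.9% in GFAP-IL6 libraries, which overlap. The endothelial, pericyte and smooth muscle, and microglial sums were, like both binding proteins, higher in every GFAP-IL6 library than in every WT library. So was the astrocyte sum, which includes Gfap at a mean of 64.1 TPM in WT and 485 TPM in GFAP-IL6. Of the 8 astrocyte markers, 5 were higher and 3 lower. Among all genes tested, 26.5% did not overlap between the groups in either direction. The part of these cell types in the result was not tested.

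**Figure D5:**
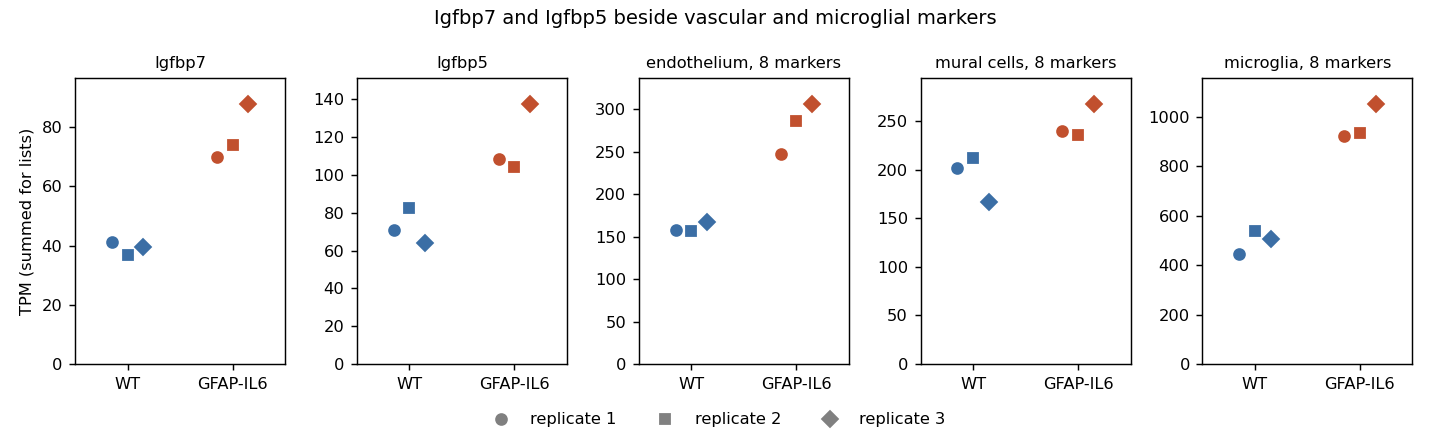
Igfbp7 and Igfbp5 in TPM beside the summed TPM of 8 endothelial, 8 mural (pericyte and smooth muscle) and 8 microglial markers in each WT and GFAP-IL6 library, each on its own axis from 0. The GFAP-IL6 libraries lie above the WT libraries in every panel, with endothelial sums of 248 to 306 TPM against 157 to 167 TPM.

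Genes whose levels followed those of a member most closely over the 6 libraries were listed by Pearson's r of log2(CPM + 1), as a description that includes the group difference. For Igfbp7 they were Fcgr3 (r = 0.9995), an Fc receptor of microglia and macrophages, Hcar2 (0.9984), a receptor of hydroxybutyrate, and Lsr (0.9981), a gene of tricellular junctions. For Igfbp5 they were Fam46a (0.9986), Gm26669 (0.9926) and Zbed4 (0.991). For Igf2 they were Nnat (0.9848), an imprinted gene, Msln (0.9836), the mesothelin gene, and Gm4980 (0.9731). For Igf1r they were Dido1 (0.997), Nup153 (0.9954) and U2af2 (0.9942), genes of nuclear proteins. The nearest gene was Ube2e2 for Igf1, Kcnk9 for Igf2r, 2610002J02Rik for Igfbp2, Psmb10 for Igfbp3, 2500002B13Rik for Igfbp4 and Apol8 for Igfbp6. With 6 libraries and 15034 genes searched, the nearest gene of every member had an r of at least 0.9848.

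The rest of the pathway was read from a list of 31 further genes, of which 21 could be tested and 0 passed the adjusted threshold. Of the 21, 14 were higher and 7 lower, with a median log2 fold change of 0.04. At an unadjusted p under 0.05, 3 of the 21 were higher and 0 lower, beside 20.5% of all genes tested in either direction. Insr, the insulin receptor, was read at 67.6 ± 3.09 CPM in WT and 79.5 ± 0.411 CPM in GFAP-IL6 (SD, n = 3), a log2 fold change of 0.24 (SE 0.08, edgeR adjusted p = 0.126). Shc1, an adaptor of receptor tyrosine kinases, had 8.66 ± 1.28 and 11.6 ± 1.77 CPM, a log2 fold change of 0.42 (SE 0.16, adjusted p = 0.182). Adamts1, a metalloprotease of the ADAMTS family, had 9.66 ± 0.426 and 12.5 ± 2.31 CPM, a log2 fold change of 0.38 (SE 0.15, adjusted p = 0.186). The smallest p among the lower genes belonged to the adaptors Grb14 (log2 fold change -0.20, adjusted p = 0.47) and Grb10 (-0.11, 0.528) and to the growth hormone receptor Ghr (-0.14, 0.679).

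By role, the 9 relatives, carriers and proteases of the binding proteins had 5 genes tested and a median log2 fold change of 0.07. The 16 genes of insulin receptors and signalling had 14 tested and a median of 0.035. The 6 genes of growth hormone receptor, IGF2 RNA-binding proteins and imprinted neighbours had 2 tested and a median of 0.03. The remaining 10 genes had too few reads. Igfbp1 had 0 to 2 reads per library and Igf2bp1 had 0 in every library.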

How the data were processed

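Frontal cortex mRNA from 3 GFAP-IL6 and 3 WT mice was sequenced. The authors deposited raw read counts per gene with gene lengths. Per the labels and the study's methods, reads were aligned with STAR 2.4 and counted with featureCounts. The labels list hg19, but all 33000 identifiers are mouse genes. For mouse reads the study's methods name a mouse reference genome and a mouse GENCODE release. The strand setting of the counting is not given in the sources used here. Positions are those of GENCODE M21 on GRCm38, matched for 32593 identifiers, and starting regions are from RefSeq.

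Counts were filtered (filterByExpr), scaled (TMM) and tested with edgeR 4.0.16 (R 4.3.3) by the quasi-likelihood test with group as the only term, and p-values were adjusted by the Benjamini-Hochberg method over all genes tested. A call is an adjusted p under 0.05. TPM was computed from the deposited counts and lengths. Alternatives were no filter, a mean CPM minimum of 1, RLE, upper-quartile or total scaling, DESeq2 1.42.0, limma-voom (limma 3.58.1), a replicate block, and leaving out each library. The fits were tested on simulated data.

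All members were named. Of the other pathway genes, those called and the 3 of smallest p in each direction were named, and up to 2 genes of each marker list by level, with called markers added. Igfbp1, Igf2bp1, Irs2, H19, Gm49394, Igf2os, Airn, Polr2b and the markers at 0 reads were named after their values were seen. Members and lists were chosen with earlier results of these data known. Each p-value sets the difference between the groups against the spread among these samples.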

Additional observations from a re-analysis of the deposited data

How the results depend on the processing

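Igfbp7 passed in 14 of 14 alternatives and Igfbp5 in 12. Members past the threshold numbered 4 with no filter (Igf1r, adjusted p = 0.00373, and Igfbp2, 0.0241, were added), 3 with the replicate block (Igfbp2, log2 fold change -0.42, adjusted p = 0.0381), and 1 to 3 when a library was left out, against 2. The other pathway genes had 1 past it with no filter and 0 to 2 on leaving out a library. All genes gave 1154 with no filter, 750 with the replicate block, and 187 (without GFAP-IL6 replicate 3) to 1061 (without WT replicate 1), with 282 without GFAP-IL6 replicate 2, against 439. Genes also past a log2 fold change of 1 numbered 307 with no filter and, on leaving out a library, 129 (without GFAP-IL6 replicate 3) to 239, against 211. The sign turned for Igf2 (limma-voom -0.009, leaving out a library -0.214 to 0.165), Igfbp3 (-0.225 to 0.072), Igfbp4 (-0.009 to 0.069) and Igfbp6 (total scaling 0.012, leaving out a library -0.079 to 0.062), none of which passed in any fit. The cause was not tested. Same-numbered libraries deviated together by correlations of 0.128, 0.022 and 0.055, and differently numbered ones by -0.101 to 0.05. These values do not decide whether the numbers pair mice. The sources used here do not say that they do, so the numbers were not taken to pair mice. Igf1 and Igfbp3 had the fewest reads of the members, summed over the 6 libraries.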

Other observations

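H19, the imprinted noncoding RNA beside Igf2, had 2, 3 and 2 reads in the WT libraries and 4, 11 and 13 reads in the GFAP-IL6 libraries. It had too few reads for the test reported above. With no filter its log2 fold change was 2.63 (edgeR adjusted p = 0.00493), and with DESeq2 it was 2.75 (adjusted p = 0.0534). Leaving out a library gave a test in 4 of 6 fits, with edgeR adjusted p from 0.00809 (without GFAP-IL6 replicate 1) to 0.119 (without WT replicate 3). In these fits H19 passed the read filter only through GFAP-IL6 replicates 2 and 3, where it was highest. It was not tested when either was left out, so these p-values give no support for a change. Irs2, an insulin receptor substrate, was read at 33.1, 15.3 and 24.7 CPM in the WT libraries and at 31.6, 32.1 and 32.4 CPM in the GFAP-IL6 libraries. Like Igf1r and Igf2r it was lowest in WT replicate 2, and it passed only without WT replicate 1 (log2 fold change 0.68, adjusted p = 0.0314).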
